A study of Mus musculus with 2 samples.

Results

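The SLAM family (signalling lymphocytic activation molecule family) was examined here in haematopoietic stem cells (HSCs) of the adult and the fetal mouse, the cells that sustain all blood lineages. The 10 genes were taken by symbol: 8 receptor genes, Slamf1, Cd48, Ly9, Cd84, Slamf6, Slamf7, Slamf8 and Slamf9, and 2 genes that act behind the receptors, Sh2d1a and Fyn. All 10 had a row in both deposited tables, out of 37820 genes in the gene table and 28009 genes for which transcripts of the transcript table could be summed. The adult samples, replicates 1 and 2, were bone marrow HSCs of the strain B6129SF1, taken at 6 to 8 weeks of age. The protocol in the labels also names E14.5 fetal liver as a source of HSCs; the strain of the fetal cells is not stated there, and individual fetal samples were not analysed here. Each table had a column headed BM (bone marrow) and a column headed FL (fetal liver), in FPKM, fragment counts scaled to feature length and to sequencing depth. Each column was read as the authors' mean, so no value carries an SD or an n and no test was possible. "Higher" and "lower" therefore compare deposited columns, not conditions. The sources used here state neither the antibodies of the sort, for which CD150 and CD48 are a common choice with HSCs, nor how many mice went into a library.

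SLAM receptors are immunoglobulin-type membrane proteins of blood cells, and most of them bind a molecule of their own kind on a neighbouring cell. CD48 differs: it is held in the membrane by a lipid anchor and is the ligand of CD244 and, in rodents, of CD2. Many of the receptors carry tyrosine motifs in their tails to which the adaptor SAP, made from Sh2d1a, binds. SAP brings in the kinase FYN, and the phosphatases SHP-1, SHP-2 and SHIP-1 can bind in its place. In the mouse, CD150, the product of Slamf1, marks HSCs, and CD48 marks progenitors and many mature blood cells.

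The 8 receptor genes all lie on chromosome 1, 6 of them in 1 cluster with Cd244a. Fyn lies on chromosome 10 and Sh2d1a on chromosome X. Promoter sequences of 3 receptor genes are shown because these genes took most of the receptor signal and differed between columns in different ways. They are RefSeq windows of build GRCm38.p6, of 250 bases before and 50 bases after the gene start, 5′ to 3′ along the gene, which is the plus strand for all 3. The positions are chr1:171766882-171767181 for Slamf1, chr1:171681742-171682041 for Cd48 and chr1:171839447-171839746 for Cd84. Capitals mark matches on either strand to GATAA (the core bound by GATA factors), to GGAAG (an ETS core) and to TGTGGT (a RUNX core).
Slamf1: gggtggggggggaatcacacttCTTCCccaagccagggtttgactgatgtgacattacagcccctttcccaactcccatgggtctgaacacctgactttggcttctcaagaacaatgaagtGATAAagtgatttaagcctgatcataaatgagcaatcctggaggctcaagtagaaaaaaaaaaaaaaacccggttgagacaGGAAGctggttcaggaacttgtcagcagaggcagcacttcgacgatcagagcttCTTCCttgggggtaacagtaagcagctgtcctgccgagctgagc
Cd48: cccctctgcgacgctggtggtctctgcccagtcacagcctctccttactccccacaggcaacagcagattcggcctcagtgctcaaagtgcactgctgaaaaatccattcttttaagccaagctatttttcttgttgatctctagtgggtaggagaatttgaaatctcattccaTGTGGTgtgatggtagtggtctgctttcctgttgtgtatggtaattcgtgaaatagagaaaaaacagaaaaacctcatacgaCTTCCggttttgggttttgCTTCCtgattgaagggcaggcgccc
Cd84: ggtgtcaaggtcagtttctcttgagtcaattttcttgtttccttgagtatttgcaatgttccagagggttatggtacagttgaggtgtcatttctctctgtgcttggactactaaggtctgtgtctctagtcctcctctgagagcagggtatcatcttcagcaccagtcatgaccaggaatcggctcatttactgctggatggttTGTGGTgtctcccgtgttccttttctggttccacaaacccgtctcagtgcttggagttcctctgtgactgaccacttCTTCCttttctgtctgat

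A promoter was found in the RefSeq table for 8 of the 10 genes. GATAA was present in 1 of these 8, Slamf1, where it lay 129 bases before the gene start, and in 25.4% of all 32851 promoters. GGAAG was present in 6 of 8 and in 71.4% of all promoters, and TGTGGT in 2 of 8, Cd48 and Cd84, and in 16.8% of all promoters. The E-box letters CANNTG were present in all 8 and in 72.3% of all promoters. These matches describe letters in the windows and are not binding sites. The Fyn window stood apart in base composition, with 69.0% G and C, against 49.0% for Slamf1, 47.3% for Cd48, 46.7% for Cd84 and a median of 52.7% over all promoters.

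How each value is read depends on which columns of the tables hold like values. Among 3125 genes that have a single linked transcript and reach 1 FPKM in every column, 75.5% had a ratio of the transcript table's FL column to the gene table's BM column within 10% of the median ratio. Between the BM columns of the tables the share was 16.7%, and between the FL columns 13.8%. The gene table's BM column thus held, for most genes, values like those headed FL in the transcript table, and which of these headers is right was not tested. Among the SLAM genes at 1 FPKM or more, the log2 ratio of transcript table FL to gene table BM was -0.06 for Cd48, -0.06 for Ly9, -0.07 for Cd84 and -0.02 for Fyn, near the median of -0.07 (log2 scale). Slamf1 was the exception at -0.86. Every value below is named by its table and header, and the tables are described apart because they were normalised separately.

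Of the 10 genes, 5 reached 1 FPKM in at least 1 column of the transcript table, and the same 5 did so in the gene table: Slamf1, Cd48, Ly9, Cd84 and Fyn. They are called expressed below. Fyn was the most abundant of the 10 in every column. Slamf6, Slamf7, Slamf8, Slamf9 and Sh2d1a stayed under 1 FPKM everywhere.

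**Figure D1:**
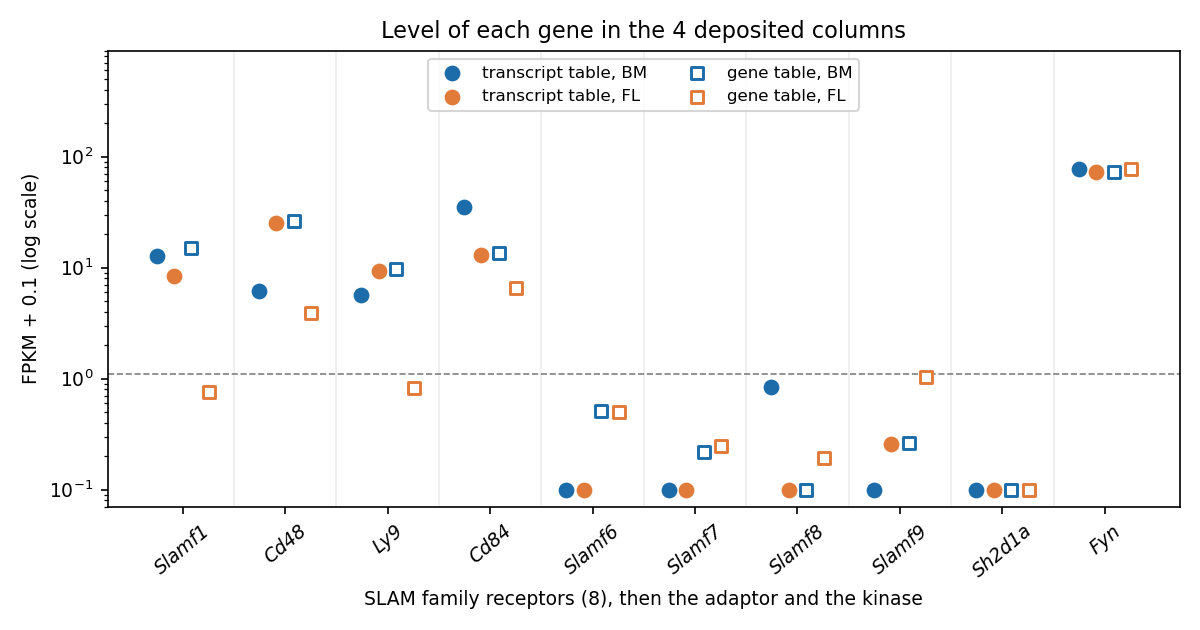
Level of the 10 genes (horizontal axis) in the 4 deposited columns, as FPKM + 0.1 on a log scale. Filled circles are the transcript table and open squares the gene table, blue is BM and orange FL, each point is 1 deposited value without error, and the dashed line is 1 FPKM. Fyn sits at the top with 4 nearly equal points, Slamf1, Cd48, Ly9 and Cd84 form a middle band that spreads between columns, and the other genes lie under the line.

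In the transcript table, the receptor genes at 1 FPKM or more differed in direction between BM and FL. Cd48 was lower and Cd84 higher in BM, each by more than 2-fold, while Slamf1, Ly9 and Fyn were within 2-fold. Directions were judged by the relative log2 ratio, log2((BM + 0.1) / (FL + 0.1)) less the median of this ratio over genes that reach 1 FPKM in each column, which was 0.01 here. Among the 12220 expressed genes of this table, the share past 2-fold was 13.3% upward and 8.82% downward in BM. Against this background 1 of 5 expressed SLAM genes was higher and 1 of 5 lower. Their median relative log2 ratio was 0.11, beside 0.02 over all expressed genes.

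Slamf1, the CD150 gene, was at 12.6 FPKM in BM and 8.23 FPKM in FL of the transcript table, a relative log2 ratio of 0.60 that did not reach 2-fold. The gene table's BM column, which otherwise matches this FL column, had Slamf1 at 14.9 FPKM. Set against that value across the tables, the relative log2 ratio of the transcript table's BM column was -0.13, a setting chosen after seeing the data, so no direction is given for Slamf1. Whether the sort used CD150 or CD48 is not stated, so the levels of Slamf1 and Cd48 and a choice of cells by these proteins cannot be told apart.

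Cd48 was at 6.09 FPKM in BM and 25.1 FPKM in FL of the transcript table, a relative log2 ratio of -2.03. It was the most abundant receptor gene of the FL column and the third of the BM column. The gene table's BM column, at 26.2 FPKM, was near the FL value. Against it the relative log2 ratio of the transcript table's BM column was -1.97. The protein is a marker of progenitors and mature cells. Macrophage, monocyte and neutrophil markers were mostly lower where Cd48 was lower, while T and NK cell markers were mixed. Of 11 expressed macrophage and monocyte markers 10 were lower in BM, with a summed level of 8.38 FPKM in BM and 218 FPKM in FL, and Timd4 was listed at 0 in BM. Of 10 expressed neutrophil markers 9 were lower, with a sum of 95.6 FPKM in BM and 522 FPKM in FL and none at 0. T and NK cell markers went both ways, with 2 higher and 2 lower among 6 expressed. Over all expressed genes of the transcript table, 13.3% were at least 2-fold higher in BM and 8.82% lower. The gene table, where Cd48 had a relative log2 ratio of 2.50, did not repeat this pattern for every list. There all 10 neutrophil markers were higher like Cd48, but 8 of 11 expressed macrophage and monocyte markers were lower and 3 higher. The shares over all its expressed genes were 12.3% higher and 23.6% lower. The part of any of these cells in the Cd48 difference was not tested. In sorted cell pools, fewer cells that express a gene and less RNA per cell cannot be told apart.

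Cd84, a receptor of platelets and several leukocytes that binds its own kind, was at 35.2 FPKM in BM and 12.8 FPKM in FL of the transcript table. Its relative log2 ratio was 1.44, the highest among the expressed SLAM genes, and 1.499 against the gene table's BM column, at 13.4 FPKM. Of 10 expressed megakaryocyte markers, 5 were at least 2-fold higher in the same column and none lower, against 13.3% and 8.82% over all expressed genes. Their summed level was 945 FPKM in BM and 223 FPKM in FL, with Gp6 at 0 in both. In the gene table, where Cd84 had a relative log2 ratio of 0.80, 4 of 10 were higher and 3 lower. Their sums there were 239 FPKM in BM and 372 FPKM in FL. The part of megakaryocytes in the Cd84 difference was not tested.

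Ly9 encodes CD229, a receptor best known from lymphocytes. It was at 5.53 FPKM in BM and 9.20 FPKM in FL of the transcript table, a relative log2 ratio of -0.73 that did not reach 2-fold. The Ly9 gene lies within the span of Cd244a on the opposite strand in the annotation of build GRCm38. Strand use in the counting is not stated in the labels, so reads of the pair may not be fully separated. Cd244a itself was at 0.203 FPKM in BM and 0.0734 FPKM in FL.

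Fyn, the Src-family kinase gene, was at 77.8 FPKM in BM and 72.0 FPKM in FL, a relative log2 ratio of 0.11. It exceeded 91.1% of the genes at 1 FPKM or more in BM and 88.0% in FL. Fyn is also used by many receptors outside the SLAM family. The adaptor gene that couples it to SLAM receptors, Sh2d1a, was listed at 0 in both columns, for all 6 of its transcripts in the table.

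**Figure D2:**
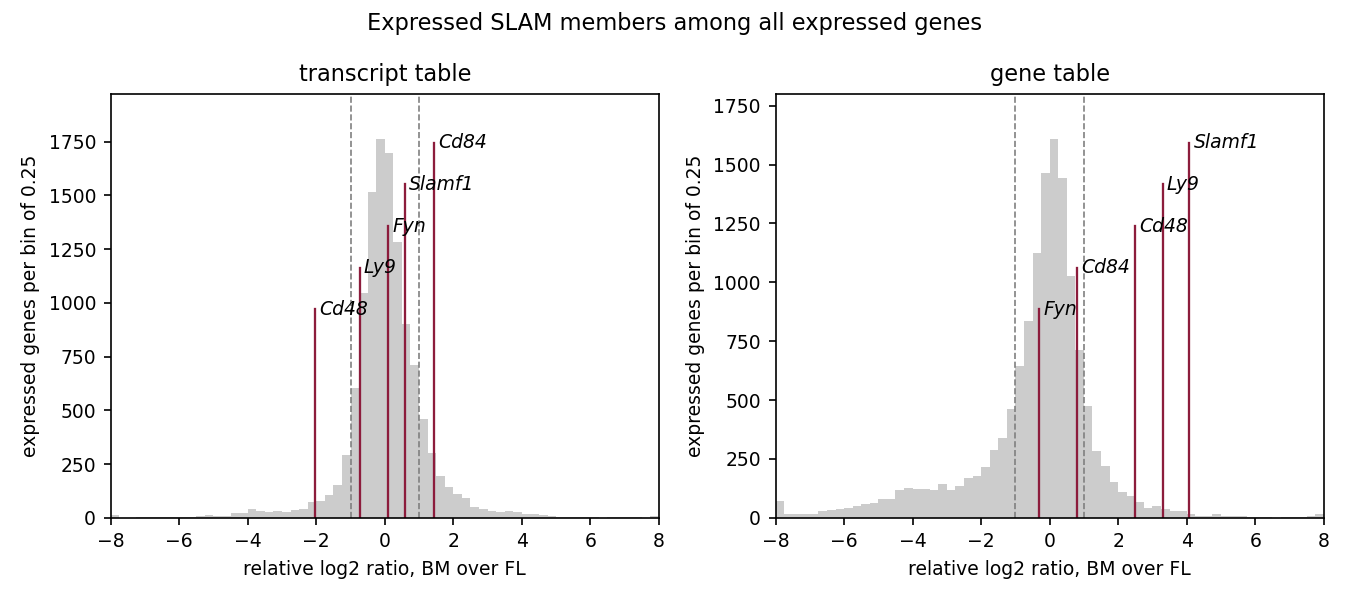
Relative log2 ratio of BM over FL (horizontal axis) for all expressed genes of the transcript table (left) and the gene table (right), as grey counts per bin of 0.25, with values beyond 8 in the end bins. Red lines mark the 5 expressed SLAM genes and dashed lines 2-fold. In the transcript table Cd48 (-2.03) and Cd84 (1.44) lie outside the dashed lines on opposite sides, and in the gene table Cd48 (2.50), Ly9 (3.30) and Slamf1 (4.08) lie outside on the right.

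The balance of the receptors within 1 column does not depend on the scaling between columns. In the transcript table the ratio of Slamf1 to Cd48, 2 levels per length in the same column, was 2.06 in BM and 0.328 in FL, a 6.28-fold difference. In the gene table's BM column, where Slamf1 was higher than in the matching FL column, the ratio was 0.568. Cd48 thus exceeded Slamf1 in both of these matching columns, and Slamf1 exceeded Cd48 in the transcript table's BM column. The summed level of the 8 receptor genes was alike, at 60.1 FPKM in BM and 55.5 FPKM in FL of the transcript table. Its makeup differed. Cd84 took 58.5% of the sum in BM and 23.1% in FL, and Cd48 took 10.1% in BM and 45.2% in FL. Ly9 took 9.20% in BM and 16.6% in FL. Slamf1 took 20.9% in BM and 14.8% in FL, but 23.0% in the gene table's BM column that matches this FL column, so no direction is given for its share.

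Along the cluster the expressed receptor genes of the transcript table did not all differ in the same direction, while in the gene table all 4 had relative log2 ratios above 0. In the order of the GRCm38 annotation the genes run Cd244a, Ly9, Slamf7, Cd48, Slamf1, Cd84 and Slamf6, with gene starts that span 358.3 kb. The genes on either side of Slamf1, Cd48 with its start at -85.1 kb from the Slamf1 start and Cd84 at 72.6 kb, were the genes that lay more than 2-fold apart between BM and FL of the transcript table, in opposite directions. Slamf7, between Ly9 and Cd48, and Slamf6, next to Cd84, were at or near 0. Slamf9 and Slamf8 lie apart, 708.2 and 823.4 kb after the Slamf1 start, and were under 1 FPKM.

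**Figure D3:**
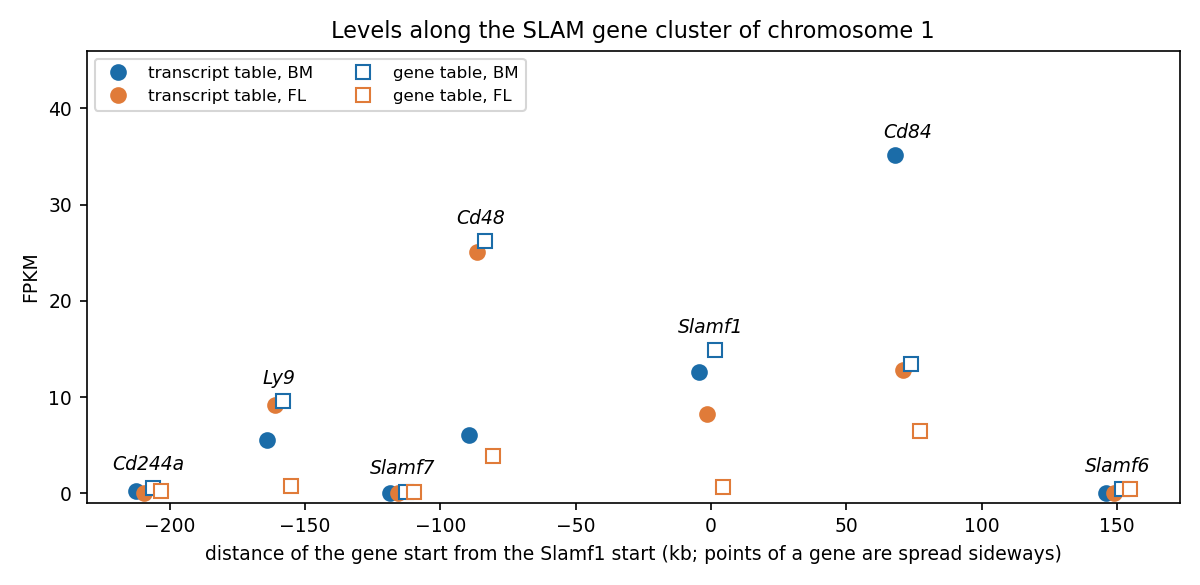
Level in FPKM (vertical axis) of the 6 clustered receptor genes and Cd244a at the distance of each gene start from the Slamf1 start, in kb of the GRCm38 annotation. Filled circles are the transcript table and open squares the gene table, blue is BM and orange FL, and each point is 1 deposited value without error. Cd48 is highest in transcript table FL and gene table BM, Cd84 in transcript table BM, and Slamf7, Slamf6 and Cd244a lie near 0 between and beside them.

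The transcript table also shows which forms of each gene carried the signal. Cufflinks, which the submitters' processing notes name, assigns reads to overlapping transcripts by a statistical model, which makes these shares estimates. Slamf1 came almost wholly from a coding transcript of 7 exons, at 11.99 FPKM in BM and 7.73 FPKM in FL. The other listed form keeps an intron and was at 0.563 FPKM in BM and 0.500 FPKM in FL. Cd48 came from a transcript of 4 exons, at 6.09 FPKM in BM and 24.1 FPKM in FL. A form that lacks its exon of 267 bases was at 0 to 5 decimals in BM and at 0.941 FPKM in FL, 3.75% of the gene's sum there.

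For Ly9, a coding transcript with a coding sequence of 1962 bases held 70.8% of the sum in BM and 79.0% in FL. Its level was 3.91 FPKM in BM and 7.27 FPKM in FL. A form that lacks an exon of 330 bases was nearly equal between the columns, at 0.859 FPKM in BM and 0.891 FPKM in FL. A form annotated for nonsense-mediated decay was at 0.690 FPKM in BM and 1.04 FPKM in FL. For Cd84, the 2 transcripts that have a coding sequence of 987 bases made up 76.9% of the sum in BM and 82.8% in FL. A transcript with a coding sequence of 984 bases made up 20.1% in BM and 17.2% in FL. A form of 2 exons, with 420 coding bases, was at 1.05 FPKM in BM and at 0 to 5 decimals in FL.

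**Figure D4:**
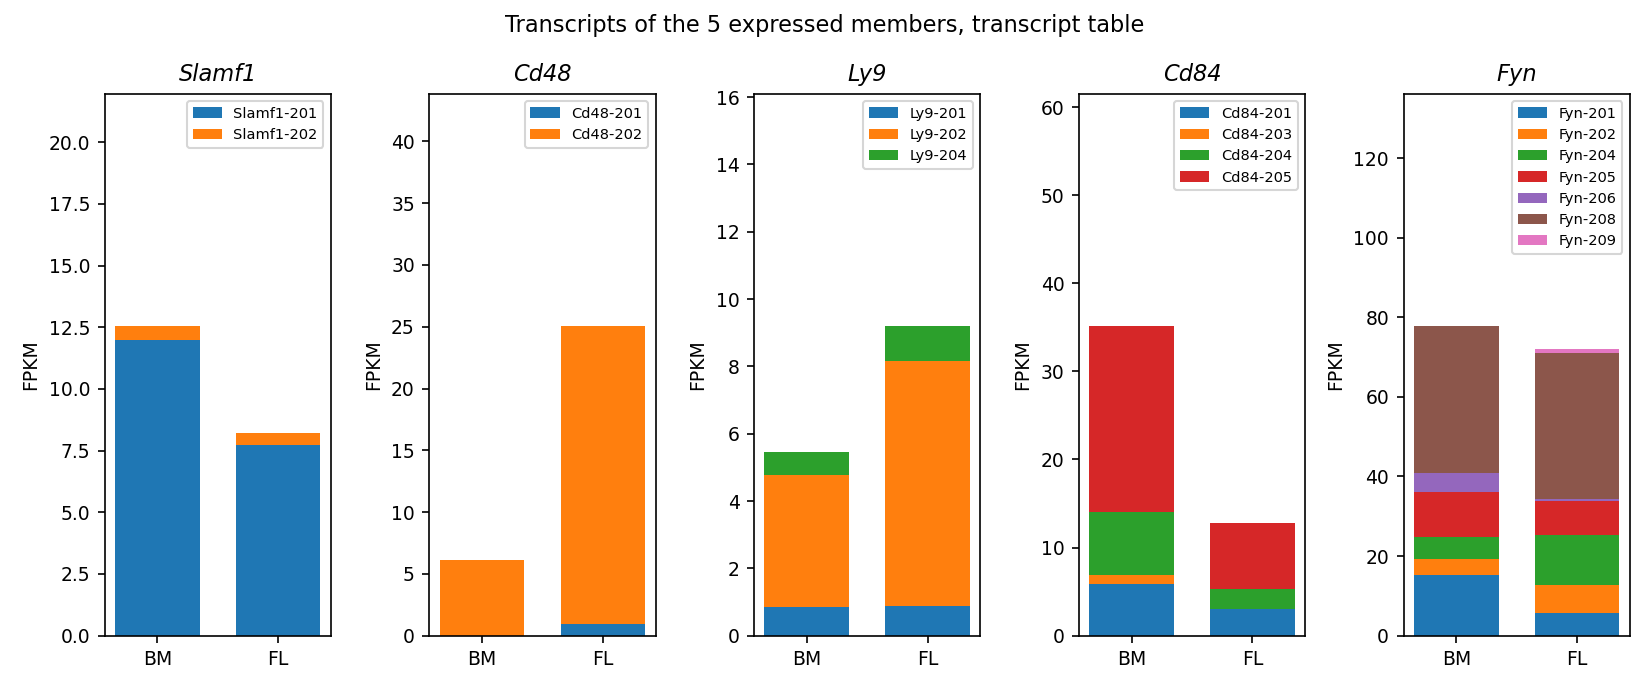
FPKM of each transcript (stacked colours; vertical axes differ) of the 5 expressed genes in BM (left bar) and FL (right bar) of the transcript table; transcripts under 0.4 FPKM in both columns are left out. Slamf1 and Cd48 are nearly 1 transcript each, Cd84 has a higher total in BM, and Fyn-208 makes up a large block of Fyn in both bars.

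Fyn has mutually exclusive exons at 1 place that give the forms FynT, known from T cells and other blood cells, and FynB, known from brain. Both exons are shown because their transcripts are listed apart in the table. They are from the GENCODE transcripts of build GRCm38, plus strand, 5′ to 3′, with the alternative exon in capitals and 15 bases of the shared exons on each side in lower case. The FynT exon has 156 bases at chr10:39529919-39530074 and the FynB exon 165 bases at chr10:39529437-39529601.
FynT exon: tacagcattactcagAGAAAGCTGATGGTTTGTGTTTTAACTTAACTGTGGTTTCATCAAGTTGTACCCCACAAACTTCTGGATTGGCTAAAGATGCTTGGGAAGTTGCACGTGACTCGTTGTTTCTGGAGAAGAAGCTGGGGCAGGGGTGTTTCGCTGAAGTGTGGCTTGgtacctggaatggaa
FynB exon: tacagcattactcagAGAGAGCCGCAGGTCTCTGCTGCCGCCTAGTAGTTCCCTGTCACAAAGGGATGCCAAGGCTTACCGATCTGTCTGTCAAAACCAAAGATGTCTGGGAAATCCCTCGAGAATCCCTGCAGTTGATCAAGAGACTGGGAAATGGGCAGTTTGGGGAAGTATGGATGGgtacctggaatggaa

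The exons were identical at 89 of 156 aligned bases, or 57.1%. Transcripts with the FynT exon, 4 in number, summed to 32.1 FPKM in BM and 26.9 FPKM in FL. The 1 transcript with the FynB exon, Fyn-202, was at 4.08 FPKM in BM and 7.08 FPKM in FL. FynT forms thus exceeded the FynB form in both columns, by 7.87-fold in BM and 3.79-fold in FL. A transcript of full coding span with neither exon, Fyn-206, was at 4.69 FPKM in BM and 0.484 FPKM in FL. Among the 6 transcripts that span the coding region, the FynT forms took 78.5% in BM and 78.0% in FL, the FynB form 9.97% in BM and 20.6% in FL, and Fyn-206 11.5% in BM and 1.41% in FL.

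About as much of the Fyn signal sat on a transcript model that ends before these exons. Fyn-208, of 675 bases and 5 exons, was at 37.0 FPKM in BM and 36.5 FPKM in FL, which was 47.5% of the Fyn sum in BM and 50.7% in FL. FPKM divides by length, so a model this short needs few reads for such a level. The sum over transcripts and the gene table value were close all the same, at 72.0 FPKM in transcript table FL and 73.2 FPKM in gene table BM. The FynT forms differed among themselves. Fyn-201 was at 15.1 FPKM in BM and 5.74 FPKM in FL, Fyn-204 at 5.57 FPKM in BM and 12.4 FPKM in FL, and Fyn-205 at 11.4 FPKM in BM and 8.73 FPKM in FL.

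The 5 genes under 1 FPKM are mostly known from lymphocytes and macrophages. Slamf6, a receptor of T and B cells, was at 0 in BM and at no more than 1.13e-07 FPKM in FL of the transcript table, where 1 of its transcripts is listed, and at 0.409 FPKM in BM and 0.406 FPKM in FL of the gene table. Slamf7, known from NK and plasma cells, was at 0 in BM and at most 3.38e-08 FPKM in FL of the transcript table. The gene table had 0.116 FPKM in BM and 0.147 FPKM in FL. Slamf8, known from macrophages, was at 0.749 FPKM in BM and 0 in FL of the transcript table. The gene table had 0 in BM and 0.0924 FPKM in FL. Its highest value, itself under 1 FPKM, stood in the column where macrophage and monocyte markers summed to 8.38 FPKM, the lowest sum of the 4 columns. The cells behind the Slamf8 values were not tested. Slamf9 was at 0 in BM and 0.158 FPKM in FL of the transcript table. The gene table had 0.165 FPKM in BM and 0.933 FPKM in FL. Sh2d1a was listed at 0 in all 4 columns. Without read counts, a value of this size cannot be set against a detection limit.

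Markers of lymphocytes were at 0 for some defining genes and present for others. Of 15 T and NK cell markers, 4 were at 1 FPKM or more in BM and 5 in FL of the transcript table, with sums of 34.2 FPKM in BM and 21.5 FPKM in FL. Cd3d, Cd8a, Trac and Ncr1 were listed at 0 in both columns, and most of the sum was Nkg7, a cytotoxic granule gene, at 21.0 FPKM in BM and 4.31 FPKM in FL, and Lck, a T cell kinase gene, at 8.04 FPKM in BM and 10.95 FPKM in FL. Of 10 B and plasma cell markers, 2 were at 1 FPKM or more in BM and 3 in FL, with sums of 21.8 FPKM in BM and 41.6 FPKM in FL and Ms4a1 at 0 in both. Cd79b, a B cell receptor chain gene, was at 16.5 FPKM in BM and 18.7 FPKM in FL, and Sdc1, a plasma cell marker, at 4.17 FPKM in BM and 19.0 FPKM in FL, which together made up most of that sum. Erythroid markers summed to 559 FPKM in BM and 870 FPKM in FL, with 9 of 11 lower, 1 higher and Alas2 at 0 in BM. The shares over all expressed genes were 8.82% lower and 13.3% higher. Mast cell and basophil markers summed to 167 FPKM in BM and 74.0 FPKM in FL, of which Gata2, a transcription factor gene also active in HSCs, was 165 FPKM in BM and 68.3 FPKM in FL, and the other 2 expressed members were lower in BM. Dendritic cell markers summed to 93.5 FPKM in BM and 105 FPKM in FL, with Siglech and Cd209a at 0 in BM. Most of that sum was Bst2, at 81.9 FPKM in BM and 82.2 FPKM in FL. Flt3 was next, at 10.3 FPKM in BM and 19.3 FPKM in FL. Hepatocyte markers summed to 13.3 FPKM in BM and 42.3 FPKM in FL, with Serpina1a at 0 in BM. The highest were Trf, at 9.99 FPKM in BM and 17.3 FPKM in FL, and Afp, at 2.89 and 6.44 FPKM. The part of any of these cells in the SLAM values was not tested.

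The partners of the SLAM receptors were low as well, while the enzymes behind them were not. Of 6 partner genes, 5 had a row in the transcript table and 1 was expressed. The CD244 gene, Cd244a, was counted with these partners, so it is not among the 8 receptor genes or in their sum. Cd247, the T cell receptor zeta chain gene, was at 2.75 FPKM in BM and 0.132 FPKM in FL. Cd2, the other receptor for CD48, was at 0 in BM and 0 to 4 decimals in FL, and Sh2d1b2, a SAP-related adaptor gene, was listed at 0 in all 4 columns. None of the 5 with a row reached 1 FPKM in the gene table. Of 25 signalling genes 23 were expressed in the transcript table, with 3 higher in BM, 2 lower and a median of -0.01 for the relative log2 ratio. These counts are near the shares over all expressed genes, 13.3% higher and 8.82% lower. Ptpn6, which encodes SHP-1, was at 96.5 FPKM in BM and 151 FPKM in FL. Inpp5d, which encodes SHIP-1, was at 104 FPKM in BM and 83.4 FPKM in FL. Csk, which encodes a kinase that restrains Src-family kinases, was at 107 FPKM in BM and 108 FPKM in FL, and Becn1, which encodes beclin-1, at 95.3 FPKM in BM and 79.1 FPKM in FL.

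Signalling genes outside 2-fold in the transcript table included Lat, Lcp2, Yes1 and Dok2. Lat, a scaffold gene of T cells and platelets, was at 45.6 FPKM in BM and 10.5 FPKM in FL. Dok2, an adaptor gene, was at 47.5 FPKM in BM and 107 FPKM in FL. The scaffold gene Lcp2 and the kinase gene Yes1 were the other higher members, with relative log2 ratios of 1.06 and 1.03. For Lcp2 the gene table's BM column had 25.7 FPKM against 7.62 FPKM in the matching FL column, so its transcript table ratio is uncertain.

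Genes of the HSC surface phenotype give the setting for these receptors. Of 14 such genes 13 were expressed in the transcript table, 3 of them higher and 1 lower in BM, against those same shares of 13.3% and 8.82%. Ptprc, among the higher genes, was at 9.57 FPKM in BM and 3.32 FPKM in FL. The gene table's BM column had it at 21.4 FPKM, so its transcript table ratio is uncertain. Kit, the stem cell factor receptor gene, was at 181 FPKM in BM and 112 FPKM in FL. Itga2b, which encodes CD41, was at 149 FPKM in BM and 22.2 FPKM in FL, and Cd34 at 80.3 FPKM in BM and 116 FPKM in FL. Slamf1 and Cd48 were thus lower per length than Kit and Cd34 in every column of this table.

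The gene table gave another picture of the same genes, with its FL column as the one that stood apart. Slamf1, Ly9 and Cd48 were higher in BM by more than 2-fold, and none was lower. The median ratio subtracted here was 0.24 (log2). Among all 13834 expressed genes the share past 2-fold was 12.3% upward and 23.6% downward in BM. Against this, 3 of 5 expressed SLAM genes were higher and 0 of 5 lower. Their median relative log2 ratio was 2.50, beside -0.07 over all expressed genes. Of the 23 expressed signalling genes, 5 were higher and 7 lower. The match between this BM column and the transcript table's FL column does not show which header is right: this BM column may not describe adult HSCs, or that FL column may not describe fetal HSCs, and the ratios of both tables carry that doubt. The gene table's FL column matched neither column of the transcript table. Its share of genes within 10% of the median ratio was 13.3% against BM and 13.8% against FL. Endothelial markers summed to 3140 FPKM and stromal markers to 773 FPKM in it. Whether it describes fetal HSCs was not tested, and every ratio of the gene table depends on it.

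Slamf1 was at 14.9 FPKM in BM and 0.652 FPKM in FL of the gene table, a relative log2 ratio of 4.08. Ly9 was at 9.60 FPKM in BM and 0.732 FPKM in FL, a ratio of 3.30, and Cd48 at 26.2 FPKM in BM and 3.83 FPKM in FL, a ratio of 2.50. Cd84, at 13.4 FPKM in BM and 6.47 FPKM in FL, had a relative log2 ratio of 0.80, and Fyn, at 73.2 FPKM in BM and 76.9 FPKM in FL, one of -0.31. The receptor sum was 64.9 FPKM in BM and 13.3 FPKM in FL, and Cd84 took 20.7% of it in BM and 48.8% in FL. The FL column therefore held little SLAM receptor signal beside a Fyn level near that of the other columns.

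Markers of other cell types also differed between the columns of the gene table, some in the direction of the SLAM receptor genes and some in the opposite direction. For comparison, 12.3% of all expressed genes of this table were at least 2-fold higher in BM and 23.6% lower. All 11 endothelial markers were lower in BM of the gene table, with sums of 351 FPKM in BM and 3140 FPKM in FL and none at 0 in either column. All 8 stromal markers were lower, with sums of 11.7 FPKM in BM and 773 FPKM in FL and Dcn and Lum at 0 in BM. Macrophage and monocyte markers were lower for 8 and higher for 3 of 11 expressed members, with sums of 232 FPKM in BM and 732 FPKM in FL and Ly6c2 at 0 in FL. Erythroid markers were higher for 8 of 11 and lower for none, with sums of 619 FPKM in BM and 135 FPKM in FL and Car1 at 0 in FL. Neutrophil markers were higher for all 10, with sums of 562 FPKM in BM and 39.1 FPKM in FL and Ctsg and Lcn2 at 0 in FL. The HSC surface genes went both ways, with 5 higher and 6 lower of 13 expressed. Kit was at 117 FPKM in BM and 35.5 FPKM in FL. Cd34 was at 120.4 FPKM in BM and 279 FPKM in FL, and Tek, the angiopoietin receptor gene, at 12.4 FPKM in BM and 105 FPKM in FL. The part of other cells in the SLAM values was not tested.

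The genes whose levels over the 4 columns were most like those of Slamf1 and of Cd48 were found by Euclidean distance of log2(FPKM + 0.1), each gene centred on its own mean, among 9429 genes whose mean reached 5 FPKM. Only 4 columns enter, and 2 of them hold like values for most genes. For Slamf1 the nearest were Jakmip1 (distance 0.52), Nefh (0.52) and Gdf3 (0.55, all in log2 units). For Cd48 they were Nxpe2 (0.23), B3gnt7 (0.34) and Mns1 (0.37). Nxpe2, the nearest to Cd48, was at 3.96 FPKM in BM and 14.0 FPKM in FL of the transcript table. The gene table had 15.03 FPKM in BM and 1.98 FPKM in FL. Jakmip1, the nearest to Slamf1, was at 9.25 FPKM in BM and 8.29 FPKM in FL of the transcript table. The gene table had 9.04 FPKM in BM and 0.478 FPKM in FL.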

How the data were processed

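Polyadenylated RNA of sorted HSCs was sequenced in paired-end mode, per the labels' protocols, although the molecule field reads genomic DNA. The authors deposited FPKM values per gene and per transcript. The submitters' processing notes name TopHat, Cufflinks, featureCounts, Subread and edgeR, and build mm9, with no role or version. Neither table holds counts and each column is read as a mean, so depth is unknown and intervals cannot be given. The 2 adult samples form 1 group, and the BM columns were assigned to it by their header.

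Symbols, transcript links and exons came from the GENCODE annotation of GRCm38, by identifier: 32819 of 37820 genes and 76507 of 87641 transcripts matched, and sums leave out unlinked transcripts. A gene was called expressed at 1 FPKM or more in either column. The pseudocount was 0.1 FPKM, so ratios understate the difference of low genes. The ratio and its centring were checked on simulated columns. The 10 genes, the gene lists and the rule for genes named were chosen with earlier results of these data known. The rule takes up to 8 genes with the highest value in each pathway list, up to 2 in each marker list with its members at 0, and the 3 nearest genes to Slamf1 and Cd48. Lat, Lcp2, Yes1, Cd244a, Cd2, Sh2d1b2 and Ptprc fall outside it and were named after their values were seen. Values of some list members are not reported here. Calculations used Python 3.11.15, numpy 2.4.6, pandas 2.3.3, Biopython 1.88 and matplotlib 3.10.9.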

Additional observations from a re-analysis of the deposited data

How the results depend on the processing

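The counts of SLAM genes outside 2-fold were recomputed with other pseudocounts (0.01 and 1 FPKM), no centring, upper-quartile scaling, other filters on low values, the most abundant linked transcript in place of the sum, and, chosen after seeing the data, the gene table's BM column in place of the transcript table's FL column. They moved by over 1.5 times only without a filter on low values, to 2 higher and 2 lower in the transcript table and to 2 lower in the gene table, because Slamf8 and Slamf9, under 1 FPKM, then enter. Without centring the gene table had 4 higher. Of 50 recomputed ratios of single genes 47 stayed within 1.5-fold and none past 2-fold changed sign. With a pseudocount of 1 FPKM the gene table's relative log2 ratio was 3.05 for Slamf1 and 2.40 for Ly9. Slamf1 in the transcript table moved to -0.13 against the gene table's BM column; the cause was not tested. No replicate could be left out because the tables hold no replicate values. No paired analysis was possible because the columns carry no replicates. The depth behind each value is unknown, which limits all values under 1 FPKM.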
